A study of Mus musculus with 2 samples.

Results

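The genes described here code for proteins that hold or sense calcium in muscle fibres. They are Casq1, Casq2, Hrc and Srl, whose products lie in the sarcoplasmic reticulum, Pvalb, a cytosolic buffer, and the calmodulin genes Calm2 and Calm3. They were chosen by gene name, with every transcript model of each gene kept, and were 7 of the 15508 annotated genes with reads. All 7 had reads in both libraries, in 139 models in replicate 1 and 166 models in replicate 2. Other calmodulin genes were not analysed here.

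The samples were the gastrocnemius, a calf muscle, of male B6CASTF1/J mice at 36 days of age, a cross of a C57BL/6J-derived and a CAST/EiJ-derived parent with no further genotype or treatment in the labels. RNA was measured by long-read RNA sequencing, in which a read can span a whole transcript. There was 1 group of 2 biological replicates, each from 2 µg of RNA, so the design held no comparison of conditions and every test below compares 2 libraries. Each replicate has its own male in the labels but a shared donor entry, so a difference between the libraries may be technical. The p-values set such a difference against read counting only and do not measure a spread between animals or libraries.

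Muscle contracts when the reticulum releases calcium into the cytosol and relaxes when pumps return it. Calsequestrin (Casq1 in fast fibres, Casq2 in heart and slow fibres), the histidine-rich calcium-binding protein (Hrc) and sarcalumenin (Srl) bind calcium inside the reticulum with many acidic or histidine side chains. Parvalbumin (Pvalb) takes up calcium in the cytosol of fast fibres and speeds their relaxation, and calmodulin is the general calcium sensor, with the same protein made from several genes.

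Acidic triplets, the codons for aspartate and glutamate, were counted in the coding sequence of each gene. These triplets made up 28.4% of the Casq1 coding sequence, 26.7% of Casq2 and 30.8% of Hrc, against a median of 11.1% over 21639 genes. The share was 25.5% in Calm2 and in Calm3 and 20.0% in Pvalb, so a high share was not particular to the lumenal proteins. In Srl it was 19.5% in the annotated long transcript and 13.6% in the annotated short one. The last 90 coding bases of both calsequestrin genes are shown for their acidic tail, with the acidic triplets in capitals (22 of 30 in Casq1 and 24 of 30 in Casq2). The ends of other genes were not counted. They lie at chr1:172210348-172210437 on the minus strand and chr3:102145338-102145427 on the plus strand, in the last coding exon of each gene. Positions and sequences here are of GRCm38 (mm10) with the GENCODE M21 annotation, the build and annotation that the file headers name.
Casq1: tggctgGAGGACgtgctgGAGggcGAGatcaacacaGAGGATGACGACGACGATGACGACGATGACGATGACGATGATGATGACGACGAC
Casq2: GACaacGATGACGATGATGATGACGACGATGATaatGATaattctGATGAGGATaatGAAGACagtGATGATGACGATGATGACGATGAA

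Hrc also had the histidine triplets CAC and CAT in 11.1% of its coding sequence, a share reached by 0.0555% of genes. Both kinds of triplet lay mainly in exon 1, which held 650 of its 738 coding triplets (12.2% histidine and 32.6% acidic there, 3.41% and 17.0% in the other exons). The 90-base window of exon 1 with most histidine triplets (10 of 30, in capitals), at chr7:45335991-45336080 on the plus strand, is shown because most Hrc reads, described below, did not reach this exon.
Hrc: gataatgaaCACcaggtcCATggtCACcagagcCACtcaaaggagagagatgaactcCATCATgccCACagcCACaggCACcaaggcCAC

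Srl is spliced into a long and a short coding form. The long form has an extra exon of 1311 bases (exon 2, chr16:4496405-4497715 on the minus strand), which is a multiple of 3. Acidic triplets made up 25.6% of this exon and 13.7% of the rest of the coding sequence. Its 120-base window with most acidic triplets (17 of 40, in capitals), at chr16:4496595-4496714, follows.
Srl long exon: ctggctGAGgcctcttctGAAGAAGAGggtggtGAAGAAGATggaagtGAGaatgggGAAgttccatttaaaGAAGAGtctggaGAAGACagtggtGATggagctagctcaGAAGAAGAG

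The exon after this choice starts at either of 2 acceptors, 3 bases apart (4493880 and 4493877), so the transcripts keep or lose the bases in capitals. The 12 bases on each side of the junction are shown for the 4 combinations, since the reads below are counted by them.
Srl short, 3 bases kept: caggacaagcagAAGaggtggaggatg
Srl short, 3 bases lost: caggacaagcagaggtggaggatg
Srl long, 3 bases kept: ttgctcaatgggAAGaggtggaggatg
Srl long, 3 bases lost: ttgctcaatgggaggtggaggatg

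The calmodulin genes have coding sequences of the same length, 447 bases, which differed at 78 positions (82.6% identity), 74 of them at the last position of a codon. The longest stretch without a difference was 17 bases, so a read across the coding part tells the genes apart. The first 90 coding bases, with exons joined, show the 15 differences among them in capitals.
Calm2: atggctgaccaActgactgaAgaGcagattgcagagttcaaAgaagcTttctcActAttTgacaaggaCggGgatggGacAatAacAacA
Calm3: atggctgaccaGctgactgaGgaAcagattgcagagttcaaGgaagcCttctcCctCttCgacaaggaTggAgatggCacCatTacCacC

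Replicate 1 had 1036455 reads in annotated genes and replicate 2 had 1374068, and CPM are counts per 1e6 of these reads. A count of 0 allows up to 2.89 and 2.18 CPM. Wilson 95% intervals of shares and exact binomial 95% intervals of ratios cover counting error only, since the tables hold no molecular identifiers. Fast-fibre markers summed to 56605 and 62715 CPM, with Myh1 and Actn3 of 6 genes called higher in replicate 1 by the rule given below. Slow-fibre markers summed to 485 and 1558 CPM, with Tnni1 and Tnnt1 of 5 genes called higher in replicate 2. Most of the slow sum in replicate 2 was Tnnt1 (232 and 1203 CPM), while Myh7 had 75.3 and 67.7 CPM. Of 5 cardiac markers, Nppa, Tnni3 and Myl7 were at 0 reads in both libraries and Myh6 had 1 read. The remaining one, Myl4, had 11 and 36 reads (10.6 and 26.2 CPM) and was called higher in replicate 2. Fibroblast markers summed to 3175 and 793 CPM, with Col1a1 and Col3a1 of 4 genes called higher in replicate 1 by the rule given below, and Schwann cell markers to 929 and 333 CPM, with Mbp of 3 called. Smooth muscle markers summed to 93.6 and 40.8 CPM, with Acta2 and Tagln of 4 genes called higher in replicate 1. Endothelial markers summed to 18.3 and 13.1 CPM. Neuron markers (1.93 and 0 CPM, with Snap25 and Nefl at 0 reads in both) and immune markers (9.65 and 2.91 CPM, with Ptprc at 0 in both) were at or near 0. The part of these markers in the differences below was not tested.

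Of the calsequestrin genes, Casq1 (ENSMUSG00000007122.11, chr1:172209894-172219868, minus strand) had 7777 CPM in replicate 1 and 4137 CPM in replicate 2, a mean of 5957 ± 2574 (SD, n = 2). It ranked 13 and 26 among all genes by CPM. Casq2 (ENSMUSG00000027861.13, chr3:102086415-102146514, plus strand), the heart and slow-fibre form, had 32 and 39 reads, or 30.9 and 28.4 CPM (29.6 ± 1.76). The Casq1 level was 252 times that of Casq2 in replicate 1 and 146 times in replicate 2 on the CPM scale, so the direction was the same in both libraries and the ratio was not.

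Hrc (ENSMUSG00000038239.11, chr7:45335290-45338974, plus strand) had 1949 CPM in replicate 1 and 8362 CPM in replicate 2, a mean of 5155 ± 4535. Its level in replicate 2 was higher and its SD was close to its mean. Srl (ENSMUSG00000022519.14, chr16:4480216-4541816, minus strand) had 2718 and 1010 CPM (1864 ± 1208), with the higher level in replicate 1.

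Pvalb (ENSMUSG00000005716.16, chr15:78191114-78206400, minus strand) had 3687 and 6221 CPM (4954 ± 1792). Calm2 (ENSMUSG00000036438.13, chr17:87433412-87446935, minus strand) had 169 and 247 reads, or 163 and 180 CPM (171 ± 11.8). Calm3 (ENSMUSG00000019370.10, chr7:16915379-16924114, minus strand) had 468 and 336 reads, or 452 and 245 CPM (348 ± 146). Calm3 was above Calm2 in both libraries on the CPM scale, by 2.77 and 1.36 times.

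CPM were also divided by the length of the annotated transcript with most reads. A read can span a whole transcript, so counts need not grow with length and this division can favour short genes. By CPM alone, mean Casq1 (5957) lay above mean Pvalb (4954), and Calm3 lay above Calm2 in both libraries. On the scale per kb, Pvalb had 3868 and 6528 CPM per kb and Casq1 had 4210 and 2240. These 2 genes exchanged places between the libraries on this scale too. Hrc followed with 808 and 3468 CPM per kb, although nearly all its reads were in models far shorter than the 2411 bases used for it. Srl had 544 and 202 CPM per kb, Calm3 had 197 and 107, and Calm2 had 135 and 149. Casq2 was lowest with 12.1 and 11.1 CPM per kb. In order of the mean CPM per kb, Pvalb and Casq1 overlapped, as did Casq1 and Hrc and also Calm3 and Calm2. Hrc and Srl, Srl and Calm3, and Calm2 and Casq2 did not overlap between libraries.

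**Figure D1:**
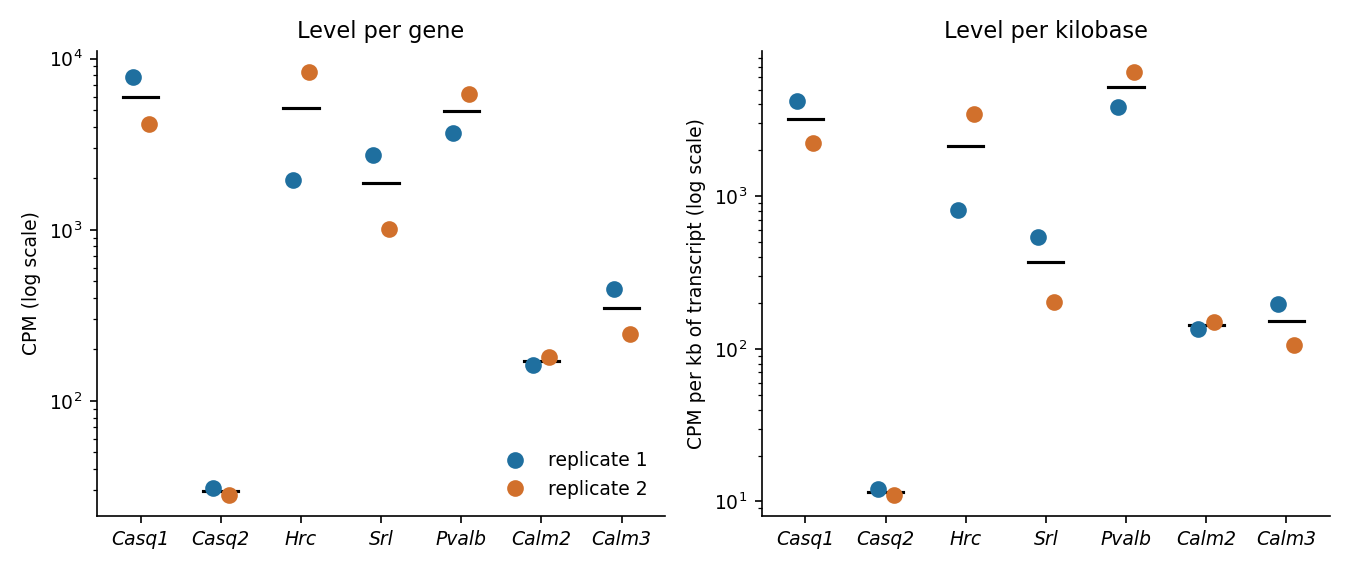
Levels of the 7 genes on log axes, as CPM (left) and as CPM per kb of the main annotated transcript (right). Points are replicates 1 and 2 and bars are their means. Casq2 lies lowest, at 30.9 and 28.4 CPM, and Hrc has the widest gap between its points, at 1949 and 8362 CPM.

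The spread between the libraries was then set against read counting. The 2 counts of a gene entered a two-sided exact binomial test where they summed to 10 or more, which 8339 genes did, with p-values adjusted by Benjamini-Hochberg over these. A gene was called at an adjusted p under 0.05 together with a difference of 2-fold or more. Of all genes tested 17.5% were called, and of the 7 genes 2 were. Hrc was higher in replicate 2, as were 5.53% of genes, and Srl was higher in replicate 1, as were 12.0% of genes. With 7 genes, 2 calls are no sign that the set stands apart. The calls over all genes depended on scaling, since 31.6% of them were higher in replicate 2 with library totals, 59.6% with TMM factors and 61.1% with DESeq2 size factors. The median log2 ratio of all genes moved with it, from −0.28 to −0.02 and −0.01.

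Hrc was 4.29 times as high in replicate 2 (95% interval 4.09 to 4.50, 2020 and 11490 reads). Its log2 ratio was 2.10, with an adjusted p under 1e-300, the smallest value written, by the exact binomial test. The median was −0.45 for 1119 genes of like length (within 25%) to its annotated transcript of 2411 bases. Most Hrc reads were in a model drawn at 255 and 242 bases, so these genes were not of like length to what was counted. Srl in replicate 2 was 0.372 times its level in replicate 1 (0.348 to 0.396, 2817 and 1388 reads). The log2 ratio of Srl was −1.43 (adjusted p = 9.45e-213, exact binomial test). The median was −0.64 for genes of like length to its annotated long transcript of 5000 bases. That transcript held only 18.3% of Srl reads in replicate 1 and 8.36% in replicate 2. In bulk tissue, fewer fibres of a type and less RNA per fibre cannot be told apart.

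Casq1 (log2 ratio −0.91), Calm3 (−0.88) and Pvalb (0.75) differed by less than 2-fold and were not called. Their adjusted p-values in the exact binomial test were 8.16e-294, 2.18e-16 and 6.1e-166, so their counts differed beyond read counting. With TMM and DESeq2 factors Pvalb passed the 2-fold threshold, at 1.01 and 1.02. The median for genes of like length was 0.51 for Pvalb, −0.18 for Casq1 and −0.41 for Calm3.

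Casq2 (log2 ratio −0.13, or 0.13 with TMM and 0.14 with DESeq2 factors) and Calm2 (0.14) were not called (adjusted p = 0.95 and 0.55, exact binomial test). With TMM and DESeq2 factors Calm2 had log2 ratios of 0.39 and 0.41 (adjusted p = 0.0275 and 0.0211, exact binomial test), still under 2-fold. With library totals, the interval of the ratio was 0.561 to 1.52 for Casq2 and 0.903 to 1.35 for Calm2. A 2-fold difference lay outside the interval of both genes with that scaling, counting error only.

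**Figure D2:**
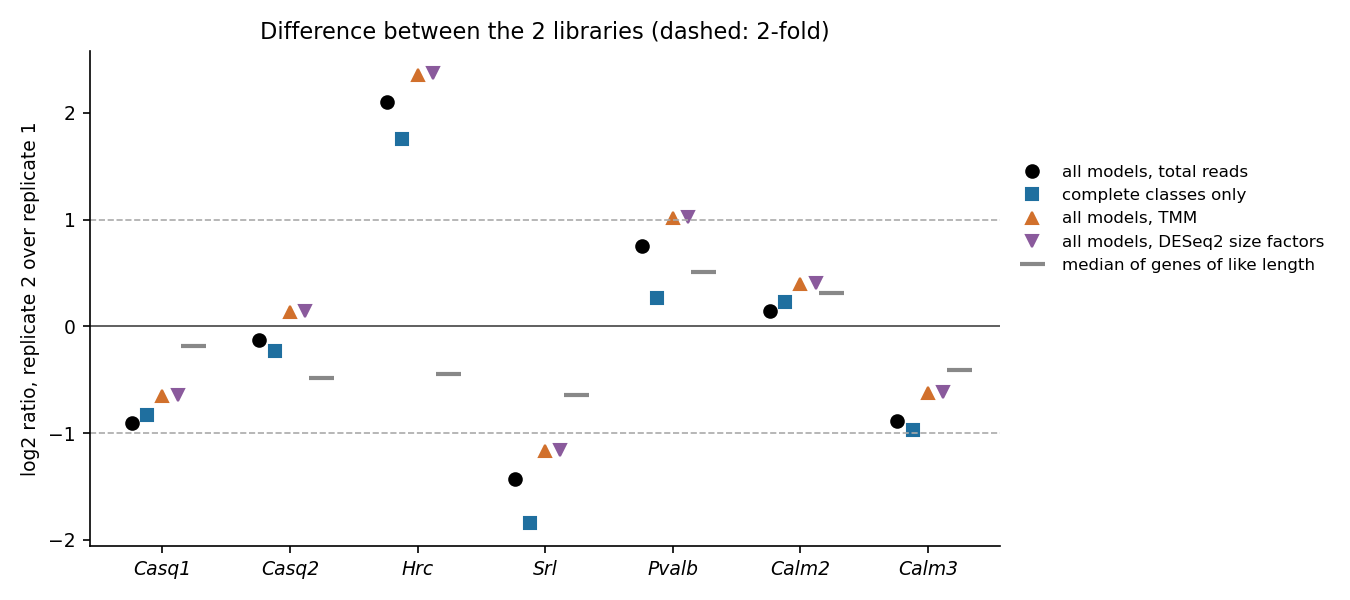
The log2 ratio of replicate 2 over replicate 1 for each gene under 4 ways of counting or scaling. A grey bar marks the median of genes of like length to the main annotated transcript. Dashed lines mark 2-fold. Hrc lies above the upper line and Srl below the lower line under all 4, and Pvalb crosses the upper line only with TMM and DESeq2 factors.

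The deposited tables sort models into classes. An annotated model matches a known transcript, and a new-combination model joins known splice sites in a new way. A new-junction model has a splice site that is not annotated, and an incomplete match holds part of a known transcript. A genomic model was assigned to a known gene but to no other class here, and it can lie inside an annotated exon. Annotated, new-combination and new-junction models are called complete classes below, although some of their models begin inside a gene. Incomplete and genomic models held 14.5% of all gene reads in replicate 1 and 24.3% in replicate 2.

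Hrc stood at one end of the set, with 96.7% of its reads in replicate 1 (95.9 to 97.4) and 97.7% in replicate 2 (97.4 to 98.0) in incomplete or genomic models. Among the 1834 genes that reached 50 reads in both libraries, 0.654% and 1.20% had one as high. For Pvalb the share was 21.7% and 50.7%, for Srl 13.7% and 42.8%, and for Calm3 8.33% and 23.5%. It was lower for Casq1 (2.88% and 9.18%) and Calm2 (1.78% and 7.29%), while the medians of genes were 7.74% and 15.1%. Casq2, with 32 and 39 reads, had 6.25% (1.73 to 20.1) and 23.1% (12.6 to 38.3). The share was higher in replicate 2 for all 7 genes, as it was for all gene reads, and its intervals overlapped between the libraries for Hrc, Casq2 and Calm2 and were apart for the other 4.

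**Figure D3:**
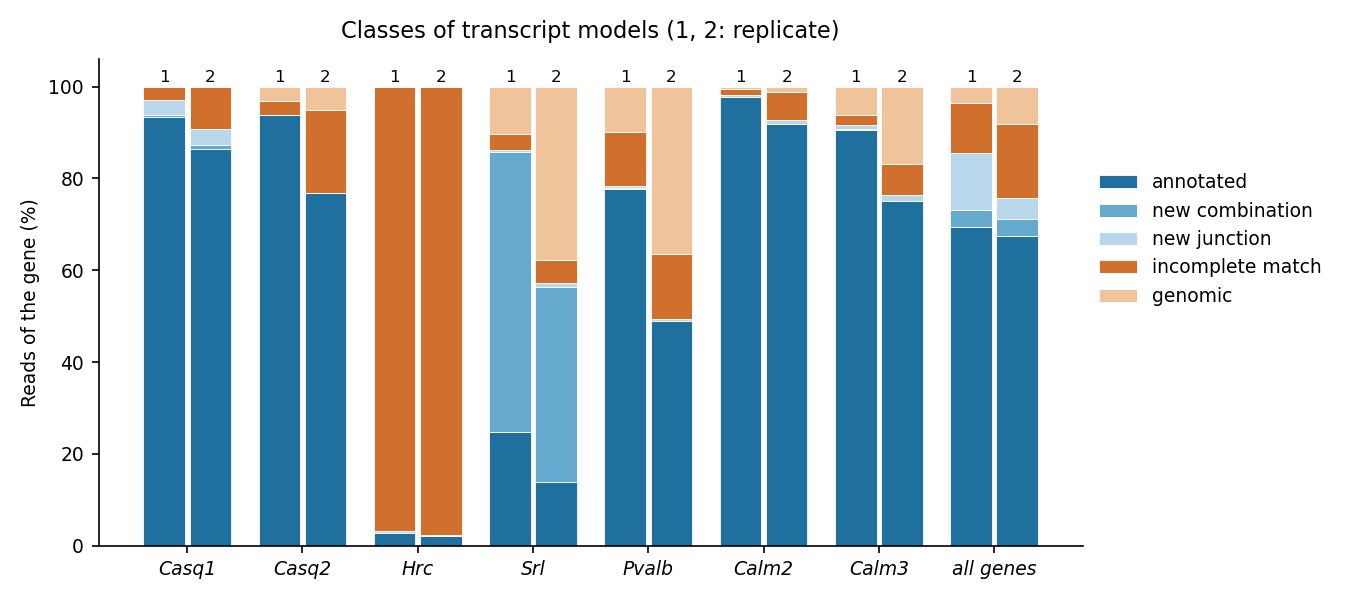
Share of each gene's reads by class of transcript model (y axis, percent), with replicate 1 left and replicate 2 right in each pair and all annotated genes at the far right. Incomplete matches fill nearly all of Hrc (96.7% and 97.7%), new combinations lead Srl in both libraries (60.9% and 42.6%), and genomic models take 9.84% and 36.5% of Pvalb.

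Restricted to complete classes, 22.8% of 6808 genes were called, and Hrc and Srl were again the called genes among the 7. Hrc was again in the direction of replicate 2, with 4.96% of genes, and Srl in that of replicate 1, with 17.8%. Hrc then rested on 66 and 263 reads, or 74.5 and 253 CPM of the reads in these classes. Its log2 ratio was 1.76 (adjusted p = 5.44e-21, exact binomial test). Of these Hrc reads, 7.58% and 6.84% were in spliced models that started in exon 3 or later. Srl had a log2 ratio of −1.84 (adjusted p = 8.36e-250). Pvalb, whose incomplete and genomic reads were more frequent in replicate 2, had a log2 ratio of 0.26 in complete classes against 0.75 with all models.

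The Hrc reads lay at the 3′ end of the gene. A single 4-exon incomplete model, beginning at the first base of exon 3 (45337887) and modelled at 255 bases in replicate 1 and 242 in replicate 2, held 1858 of 2020 reads (92.0%) and 10666 of 11490 reads (92.8%). A 3-exon model held another 3.32% and 3.40%. It began at exon 4 (45338154) in replicate 1 and was drawn from 45338135, before that exon, in replicate 2. The annotated 6-exon transcript of Hrc held 56 and 236 reads (2.77% and 2.05%). The share of the 4-exon model differed by 0.85 points between the libraries (adjusted p = 0.312, Fisher exact test), although the gene's count differed 4.29 times.

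Along the gene, the Hrc junction of exons 1 and 2 was in 3.07% (2.40 to 3.92) and 2.15% (1.90 to 2.43) of reads, and that of exons 2 and 3 in 3.42% and 2.32%. The junction of exons 3 and 4 was in 96.4% and 96.3%. Exon 1 of 2085 bases, with the histidine triplets shown above, was therefore in few reads in either library. Models take their outer ends from annotated exon edges or from a read, and every multi-exon splice chain was 1 model in its library (53223 and 50293 chains), so where within exon 3 each read began is not resolved.

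Of the Hrc reads at the last intron, 0.84% (0.53 to 1.34) and 0.78% (0.64 to 0.96) kept it. An unannotated acceptor inside it, at 45338838, was used in 0.30% and 0.44%. Among the few reads spliced from an annotated donor in exon 1, 0 of 62 and 0 of 247 joined it to exon 4 as in the other annotated coding transcript, which allows up to 4.84% and 1.21%. All 2020 Hrc reads of replicate 1 and 11489 of 11490 in replicate 2 were in models that ended within 50 bases of the annotated 3′ end.

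**Figure D4:**
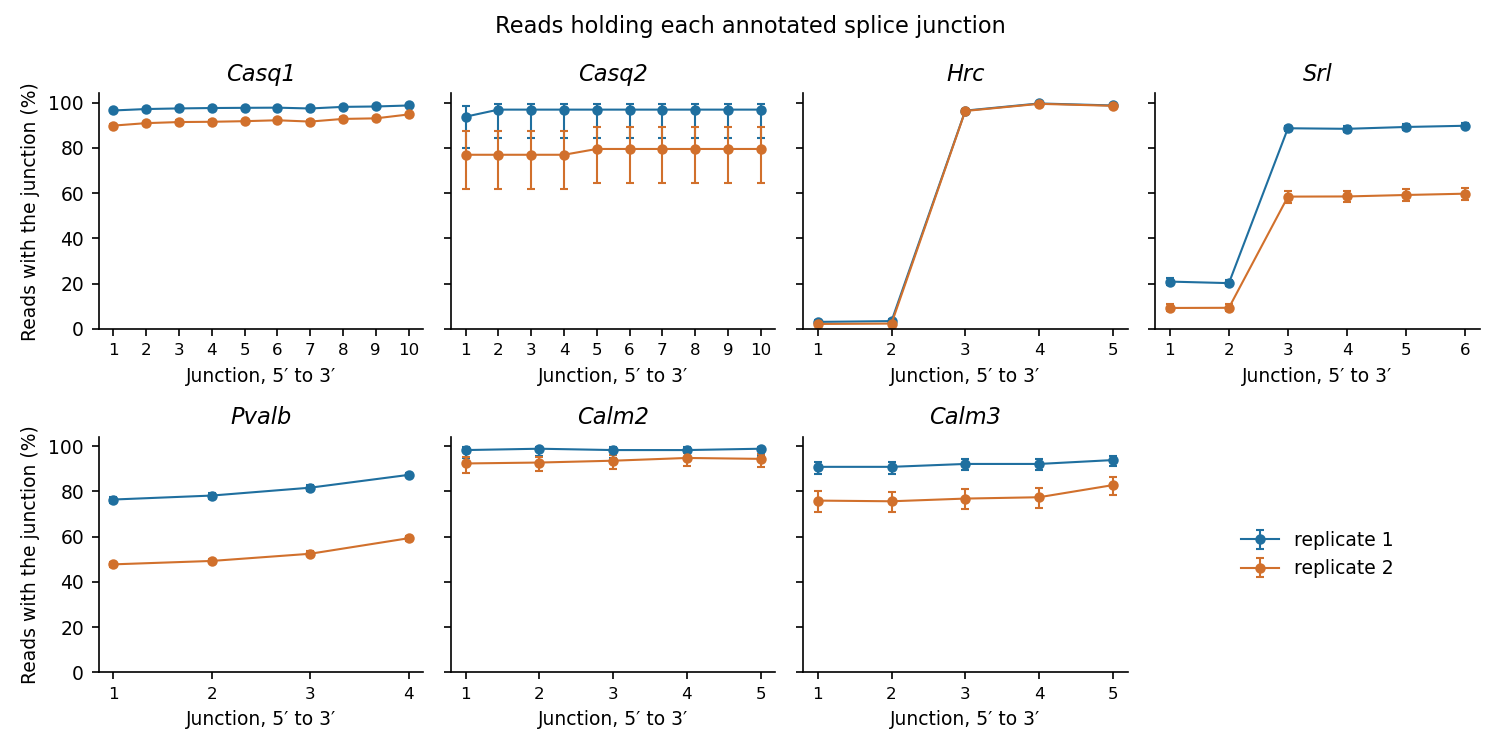
Percent of a gene's reads (y axis) that hold each annotated splice junction, numbered from 5′ to 3′ along the main annotated transcript, with Wilson 95% intervals, for replicates 1 and 2. Hrc steps from 2.32% to 96.3% between its junctions 2 and 3 in replicate 2, Srl steps where the long exon is spliced in or skipped, and Casq1 and Calm2 are nearly flat.

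The choice of coding form was covered by 88.0% of Srl reads in replicate 1 and 57.9% in replicate 2. Of these, 26.0% (24.3 to 27.7, 644 of 2479) had the long acidic exon in replicate 1 and 17.4% (14.97 to 20.2, 140 of 803) in replicate 2, a mean of 21.7% ± 6.04. The others had the short form. The intervals did not overlap, so the long form was less frequent in replicate 2 beyond read counting. In complete classes alone the share was 24.3% and 16.2%.

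The 3 optional bases of Srl were lost in 10.4% (9.23 to 11.6) and 10.8% (8.87 to 13.2) of reads, and these intervals overlapped. By form, they were lost in 11.6% and 7.86% of long-form reads and in 9.92% and 11.5% of short-form reads, with intervals that overlapped between forms in each library.

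The leading Srl structure joined the short form with the 3 bases kept. It held 1642 reads (58.3%) and 580 reads (41.8%) and was a new combination, since the annotated short transcript has the bases lost. That transcript held 6.46% and 5.40%. The annotated long transcript, with the bases kept, held 18.3% and 8.36%. The leading model was drawn to 4476263 in replicate 1 and 4478879 in replicate 2, 3953 and 1337 bases past the end of the annotated short transcript, but that end belongs to 1 model for the whole chain. An unannotated 36-base exon at 4489807 to 4489842 was in 0.44% (0.25 to 0.79) and 0.49% (0.19 to 1.25) of reads.

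Single-exon genomic models at the 3′ end of Srl held 272 reads in replicate 1 and 507 in replicate 2 in their largest members. In replicate 1 that model is listed at 13 bases, from 4480216 to 4480228, which are the annotated 3′ ends of the short and the long transcript. In replicate 2 it is listed at 998 bases. Such reads do not reach the choice of coding form.

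Pvalb has 2 annotated first exons, and the transcripts from both share their coding sequence. The upstream one (chr15:78206337-78206400) was in 97.6% (96.9 to 98.1, 2918 of 2991) and 96.9% (96.3 to 97.4, 4079 of 4209) of the reads with either. The downstream one (chr15:78204085-78204237) was in 2.44% and 3.09%, with overlapping intervals. Both starts have a RefSeq promoter entry (GRCm38.p6), and the bases 200 to 81 before each start are shown, with matches on either strand to the TATA box (TATAAA), the E-box (CANNTG) or the MEF2 motif in capitals.
Pvalb upstream promoter: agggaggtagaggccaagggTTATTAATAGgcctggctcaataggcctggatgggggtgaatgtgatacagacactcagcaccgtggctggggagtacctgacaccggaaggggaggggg
Pvalb downstream promoter: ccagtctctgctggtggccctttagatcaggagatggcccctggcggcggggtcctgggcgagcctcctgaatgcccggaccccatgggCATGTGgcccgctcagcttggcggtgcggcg

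These stretches lie at chr15:78206481-78206600 and chr15:78204318-78204437 on the minus strand. The MEF2 motif, bound by a muscle transcription factor family, had a match 180 bases before the upstream start and none in the 300-base window of the downstream start. Among all 32851 promoter windows of that length, 3.19% held the MEF2 motif, 72.3% held CANNTG and 13.6% held TATAAA. Of the 7 genes 5 had a promoter entry, and of their 6 windows those of Casq2 and upstream Pvalb held a MEF2 match, those of Casq1, Casq2, Hrc and downstream Pvalb held CANNTG, and none held TATAAA. A match describes the letters in the window only.

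A Pvalb genomic model of 4 bases, from 78191114 to 78191117, the annotated 3′ ends of the transcripts with the downstream and the upstream first exon, held 375 reads (9.81%) in replicate 1 and 3118 reads (36.5%) in replicate 2. Its listed length shows where the model was drawn and not the length of the reads, which the tables do not give. Through the Pvalb junctions the share of reads climbed from 76.4% at the first to 87.3% at the last in replicate 1, and from 47.7% to 59.3% in replicate 2. The upstream transcript as a whole chain held 75.9% and 47.5% of reads. A Pvalb incomplete match of the last 2 exons, 691 bases long, held 208 reads (5.44%) and 580 reads (6.79%).

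The annotated 11-exon transcript of Casq1 held 93.3% and 86.3% of reads, and its first junction was in 96.5% and 89.8%. The largest unannotated form removed 181 bases inside exon 1 (172219657 to 172219837), in 2.52% (2.19 to 2.89) and 2.39% (2.01 to 2.85) of reads with the first junction. The removed bases begin with GT and end with AG and include 34 coding bases with the annotated start codon.

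The ends of the removed Casq1 bases are shown, 15 bases on each side of each cut, because a stretch of 10 bases (capitals) occurs at both. The copies lie 180 bases apart, 1 base less than the removal.
Casq1 exon 1, 5′ end of the removed bases: ctccaggacccAGCAGTGTCCtctgtccac
Casq1 exon 1, 3′ end of the removed bases: tgggggccagAGCAGTGTCCgagctgcggc

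For 3 rarer Casq1 forms the intervals of the libraries overlapped. A removal of 176 bases from the same start was in 0.090% and 0.20% of reads, and exon 1 extended by 184 bases in 0.15% and 0.35%. An acceptor 3 bases downstream in exon 8 was used in 0.36% and 0.40%. Casq2 had 30 reads in each library in its annotated 11-exon transcript, of 32 and 39. A single-exon Casq2 group at the 3′ end held 1 read (3.12%, 0.554 to 15.7) and 6 reads (15.4%, 7.25 to 29.7).

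**Figure D5:**
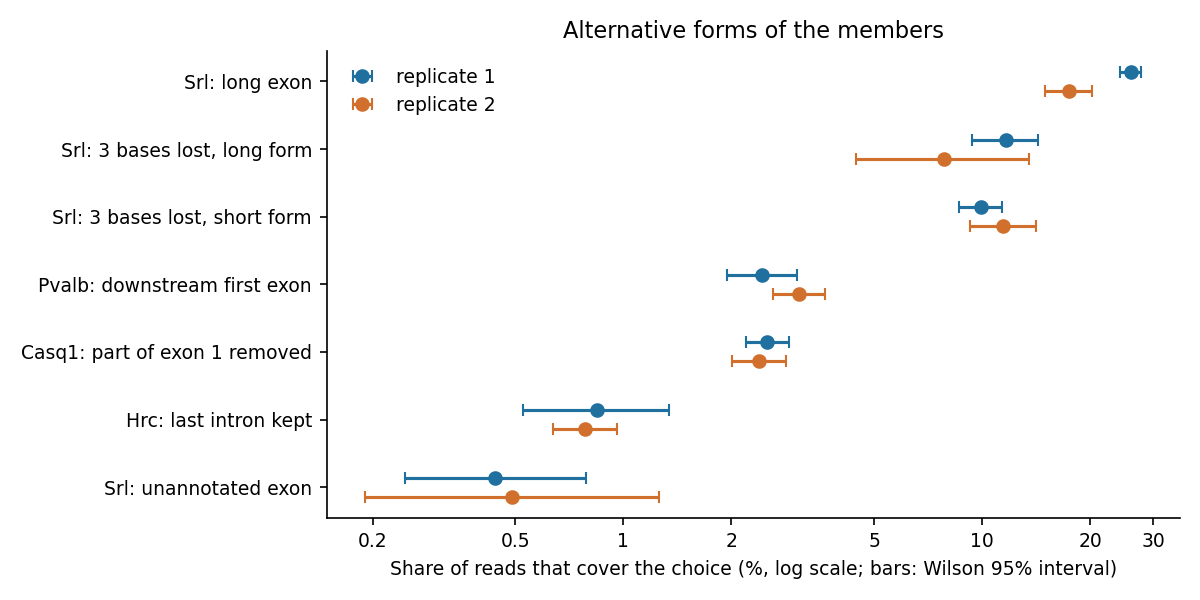
Share of reads with each alternative form (x axis, percent on a log scale, of the reads that cover the choice), with Wilson 95% intervals, for replicates 1 and 2. The intervals of the libraries separate only for the long exon of Srl (26.0% and 17.4%) and overlap for the other 6 forms plotted.

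The calmodulin genes were each expressed mainly as 1 annotated 6-exon transcript. That of Calm2 held 164 of 169 reads (97.0%) and 224 of 247 (90.7%), and that of Calm3 held 424 of 468 (90.6%) and 252 of 336 (75.0%). The coding parts are equal in length, and the annotated 3′ untranslated parts are 615 bases in Calm2 and 1569 in Calm3. The last 30 bases of each transcript are shown because they hold the poly(A) signal AATAAA (capitals), at chr17:87433412-87433441 and chr7:16915379-16915408 on the minus strand.
Calm2 3′ end: ttccAATAAAaaaaattacaatttacccaa
Calm3 3′ end: aatgttttccAATAAAatacagtgactacc

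Models ending within 50 bases of this Calm2 end held 98.8% of reads (95.8 to 99.7) in replicate 1 and 95.5% (92.2 to 97.5) in replicate 2. For Calm3 the share was 99.8% (98.8 to 100) and 99.4% (97.9 to 99.8). Shorter or longer 3′ ends within the same splice chain cannot be told apart here, because each chain has 1 model. Beside the spliced reads, a Calm3 single-exon genomic model at the 3′ end held 29 reads (6.20%), drawn at 300 bases, and 57 reads (17.0%), drawn at 559 bases, both inside the last exon of 1598 bases. A 2-exon incomplete match of Calm3 held 8 reads (1.71%) and 19 reads (5.65%).

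AATAAA stood within the last 50 bases of the main annotated transcript of Casq1, Casq2, Hrc, Srl, Calm2 and Calm3. For the upstream Pvalb transcript neither AATAAA nor ATTAAA was among those bases, while 70.0% of 21639 genes had one of them there.

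The share of a gene's leading splice chain was compared between the libraries by a Fisher exact test (two-sided). It was run in the 1767 genes that had 50 or more reads in both and more than 1 chain, and a gene was called at an adjusted p under 0.05 and 10 percentage points. Of these genes 32.0% were called, and of the 6 members tested Pvalb (75.9% and 47.5%), Srl (58.3% and 41.8%) and Calm3 (90.6% and 75.0%) were, all lower in replicate 2. Their adjusted p-values by the Fisher exact test were 2.84e-195, 1.86e-22 and 4.15e-08. In complete classes alone 21 of all genes and 0 of the 6 members were called. The number of all genes tested in these classes is not given here, so 0 of 6 is not set against a share. In the Fisher exact test 2 members (Casq1 and Srl) had an unadjusted p under 0.05. In those classes the leading Pvalb chain held 96.9% and 96.3% and that of Calm3 98.8% and 98.1%. For Srl it held 67.6% and 73.0%, higher in replicate 2, the opposite order to that with all models (unadjusted p = 0.00408, adjusted p = 0.0882, Fisher exact test).

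Of 76 other genes of the calcium pathway, in lists of pumps, release, entry, lumenal, cytosolic and calmodulin-binding proteins, 61 were tested. Of these, 4 were called toward replicate 2 and 9 toward replicate 1, where 5.53% and 12.0% of all genes were. Their median log2 ratio was −0.22 against −0.28 over all genes. In complete classes 3 and 22 of 58 were called, where 4.96% and 17.8% of all genes were, and the median was −0.77 against −0.42 over all genes. The listed genes were not matched to other genes by length, so these counts do not show that the pathway stands apart. The part of transcript length was not tested. The pump gene Atp2a1, which returns calcium to the reticulum, had 104072 and 35745 reads and a log2 ratio of −1.95. The slow-fibre troponin C gene Tnnc1 had 67 and 317 reads (1.83), and Pln, a pump inhibitor, had 1 and 19 reads, a ratio of 14.3 with an interval of 2.28 to 595. Stim2 (−2.08), a calcium sensor of the reticulum, Pdia4 (−1.44), a lumenal disulfide isomerase, and Cacna2d1 (−1.27), a calcium channel subunit, were higher in replicate 1.

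With all models, 5.53% of all genes were called toward replicate 2 and 12.0% toward replicate 1. By list, 1 of 4 tested pump genes was called toward replicate 2 and 1 toward replicate 1, and of 12 release and triad genes also 1 and 1. Of 12 other calcium-binding proteins of the reticulum lumen 2 were called, both toward replicate 1, and the list median was −0.60. Of 13 other cytosolic EF-hand genes 1 was called, toward replicate 2, and the list median was 0.29. The calls were 2 of 5 entry and exit genes, both toward replicate 1, and 4 of 15 calmodulin-binding genes, 3 of them toward replicate 1. In complete classes the calls toward replicate 2 and replicate 1 were 0 and 2 of 3 pump genes, 0 and 4 of 12 release and triad genes, and 0 and 2 of 4 entry and exit genes. They were 0 and 5 of 12 lumenal genes, 2 and 0 of 13 cytosolic EF-hand genes, and 1 and 9 of 14 calmodulin-binding genes. Over all genes in these classes the shares were 4.96% and 17.8%, again without matching by length.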

How the data were processed

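The deposited tables hold the authors' read counts per transcript model, raw and not pooled, with whole numbers. Per the file headers, the build was mm10 with the GENCODE M21 annotation, and deposited annotation files name TALON for unannotated models; the aligner is not given in the sources used here. Model lengths and exon numbers came from the same files. Members and lists were chosen with earlier results of these data known. All members were named, with the called list genes of largest log2 ratio, at most 6, and models with at least 5% of a member's reads.

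Gene counts were sums over models. With 1 library on each side no residual degrees of freedom were left, so exact binomial tests (the smaller tail doubled, 0.5 reads added for log2 ratios) and Fisher tests were used, with Python 3.11.15 and scipy 1.17.1, and were tested on simulated data. TMM factors came from edgeR 4.0.16 and size factors from DESeq2 1.42.0. Counts differed between the libraries by 24.4 times read counting (chi-square per degree of freedom), so they were kept as 2 samples. Models were matched by splice chain. Sequences came from GENCODE M21 transcripts and RefSeq promoters. Reads outside annotated genes entered no total.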

Additional observations from a re-analysis of the deposited data

Results flagged for a closer look

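Reads outside the annotated gene models lay beside some members and entered none of the comparisons above. On the strand opposite to Pvalb, within 4000 bases of the gene, there were 39 reads in replicate 1 and 103 in replicate 2. Most were in single-exon antisense models inside the last Pvalb intron (78191695 to 78201225), at 78197503 to 78200680 with 37 reads and 78199131 to 78200680 with 98 reads. Opposite to Srl there were 9 reads in replicate 1 and 51 in replicate 2, spread over several models. On the strand of Srl, past its annotated 3′ end, intergenic models held 18 reads in replicate 1 and 23 in replicate 2, between 4476263 and 4479421. All 6 counts are above 3, the number of reads that a count of 0 allows. How the strand of a read was set is not given in the sources used here, so reads of a gene and of its opposite strand may be mixed.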

How the results depend on the processing

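With 2 libraries, each level is a mean of 2 values, leaving out a replicate leaves the other's value and no test, and 1e6 reads set the precision for Casq2 and the calmodulin genes. Hrc and Srl stayed called, in the same direction, under TMM and DESeq2 factors, with no filter on low counts, in complete classes alone, and without genomic models, a setting chosen after seeing the data. Casq2 changed sign, to 0.13 with TMM and 0.14 with DESeq2 factors. Pvalb became called at 1.01 and 1.02. In complete classes the mean level of Hrc was 164 CPM and that of Calm2 was 204 CPM. The called leading chains were then 21 genes, of a number tested that is not given here, and 0 members. The causes were not tested. The share of Srl reads with the long form ranged from 17.4% to 26.0% when a replicate was left out, the main 3′ end share from 95.5% to 98.8% for Calm2 and from 99.4% to 99.8% for Calm3, and these shares did not change with the end window. No paired analysis was possible because there is 1 group.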
